A study of Homo sapiens
Mus musculus with 5 samples.

Results

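The 14-3-3 genes were described in 5 tumor libraries of a xenograft study, in the cancer cells and in the host tissue around them. The set is the stratifin gene SFN, which encodes 14-3-3 sigma, and the 6 YWHA genes: YWHAB (beta), YWHAE (epsilon), YWHAG (gamma), YWHAH (eta), YWHAQ (theta) and YWHAZ (zeta). Members were taken by gene symbol, 7 of the 25524 genes in the human table, and the genes of the same symbol, 7 of 24628, were taken from the mouse table. The family was chosen by the human brain and lung tumor RPKM of SFN, which an earlier analysis of the same libraries had placed among the human genes of lowest unadjusted p, and the 6 YWHA genes were added as its relatives. The human values of brain against lung tumors are therefore given as a description with no test, whereas the mouse values did not choose the members and were tested.

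The host animals were athymic nu/nu mice, whose missing thymus leaves them few T cells. They carried tumors of H2030-BrM3, an established derivative of a human lung adenocarcinoma line that was enriched for cells able to colonise brain. Brain tumors (BrMet) gave 3 libraries and orthotopic lung tumors (LuOt), seeded through the trachea, gave 2. All 5 share the cell line and the host strain, so the results are those of 1 line. For the seeding of the brain tumors, the age of the animals and the time of growth, nothing is stated in the labels, and nothing says that each tumor came from its own animal, so the p-values below reflect the spread of these libraries alone, and that spread may be technical. Human reads were read as the cancer cells and mouse reads as the host. Values are RPKM, reads scaled by gene length and by the read total of that species, which sets genes side by side per length, although the lengths the authors used are not stated.

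14-3-3 proteins are small acidic proteins that form dimers and bind partner proteins at phosphorylated serines or threonines. Binding can hold a partner in the cytoplasm, block its activity or shield it from phosphatases, as with the CDC25 phosphatases, BAD, RAF kinases and YAP1. Most YWHA genes are widely expressed and are abundant in neurons, whereas SFN is an epithelial gene, first described in stratified epithelium, that can restrain entry into mitosis. The 7 human genes lie on 7 chromosomes. In GRCh38.p14 (RefSeq), SFN lies on chromosome 1 from 26863149 to 26864456, YWHAQ on chromosome 2 from 9583967 to 9630997 and YWHAG on chromosome 7 from 76326799 to 76358991. YWHAZ lies on chromosome 8 from 100916523 to 100953382, YWHAE on chromosome 17 from 1344275 to 1400222, YWHAB on chromosome 20 from 44885705 to 44908532 and YWHAH on chromosome 22 from 31944535 to 31957603. All 7 are protein-coding.

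Recovered whole reads give the depth, with 2445463 to 8418107 human and 231044 to 8634688 mouse reads per library. Lung tumor 1 stood apart, with 3.41% mouse reads against 24.4% to 77.9% in the other 4 libraries. The host carried the markers of its organ, since the summed RPKM of 12 neuron markers was 3205 to 3922 in the brain tumors, against 100.2 and 70.74 in lung tumors 1 and 2. Markers of lung epithelium (10 genes) summed to 59.82 to 115.8 RPKM in the brain tumors, against 1016 and 66000 in lung tumors 1 and 2. Lung tumor 1 thus held far less of this marker RNA than lung tumor 2, and its surfactant gene Sftpd was at 0. For fibroblasts and muscle (10 genes) the sums were 17610 and 9589 RPKM in lung tumors 1 and 2. In the brain tumors they were 119.9 to 777.8. Macrophage and microglia markers (9 genes) summed to 5560 and 724.5 RPKM in lung tumors 1 and 2, and to 345.3 to 1193 in the brain tumors. In lung tumor 1 both sums lay above that of lung epithelium. In the human table the epithelial genes EPCAM, MUC1, KRT8 and KRT18 were at 29.7 RPKM or more in every library. CDH1 had 12.2, 21.0 and 54.2 RPKM in the brain tumors, against 4.39 and 27.3 RPKM in the lung tumors. KRT7 and KRT19 were at 0 in 1 and 2 libraries, and at most at 5.36 and 0.458 RPKM.

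SFN was lower in the cancer cells of the brain tumors than in those of the lung tumors, and it was the one member of the family with lower values there. SFN (ENSG00000175793.11) had 96.2, 55.4 and 55.8 RPKM in brain tumors 1, 2 and 3, against 565 and 236 RPKM in lung tumors 1 and 2. Every brain tumor lay below both lung tumors, and the lung tumors differed from each other by more than the brain tumors did, 2.39-fold against at most 1.74-fold. Behind these values stood 1097, 480 and 184 human reads in the brain tumors, against 4981 and 1197 in the lung tumors. SFN averaged 69.1 ± 23.5 RPKM over the 3 brain tumors and 400.4 ± 232 RPKM over the 2 lung tumors (mean ± SD), and the fitted log2 fold change was -2.43 (SE 0.45). Against lung tumor 2 alone it was -1.81, and against lung tumor 1 alone -3.06. In bulk tumor RNA a lower level per cell and fewer cells that express a gene cannot be told apart.

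YWHAZ and YWHAQ were the most abundant members in the brain tumors. YWHAZ, which encodes the zeta isoform, had 803, 684 and 781 RPKM in the brain tumors, against 548 and 786 RPKM in the lung tumors. Its groups overlapped, with lung tumor 1 below the rest. YWHAQ, which encodes the theta isoform, also called tau, had 696, 587 and 965 RPKM in the brain tumors, against 403 and 526.5 RPKM in the lung tumors. All 3 brain tumors lay above the lung tumors, opposite to SFN, with a fitted log2 fold change of 0.67 (SE 0.37). YWHAB, which encodes the beta isoform, had 530, 501.5 and 606 RPKM in the brain tumors, against 496 and 471 RPKM in the lung tumors. Its groups did not overlap either, but the gap between the nearest libraries was small beside the SD of 54.3 RPKM in the brain tumors.

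The other 3 members were expressed at lower levels. YWHAH, the eta isoform gene, was the steadiest, at 143, 134 and 146 RPKM in the brain tumors, against 138 and 128 RPKM in the lung tumors. Its highest and lowest libraries differed by 1.14-fold, against 10.2-fold for SFN. YWHAE, the epsilon isoform gene, had 138, 146 and 119 RPKM in the brain tumors, against 46.2 and 131 RPKM in the lung tumors. YWHAG, the gamma isoform gene, had 112, 95.1 and 95.9 RPKM in the brain tumors, against 55.3 and 127 RPKM in the lung tumors. Both were lowest in lung tumor 1, and lung tumor 2 lay within or above the brain tumors, so the direction of YWHAG changed with the library: its log2 fold change was 0.26 over 5 libraries, -0.33 without lung tumor 1 and 0.86 without lung tumor 2. That of YWHAE was 0.77 over 5 libraries and 0.03 without lung tumor 1.

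**Figure D1:**
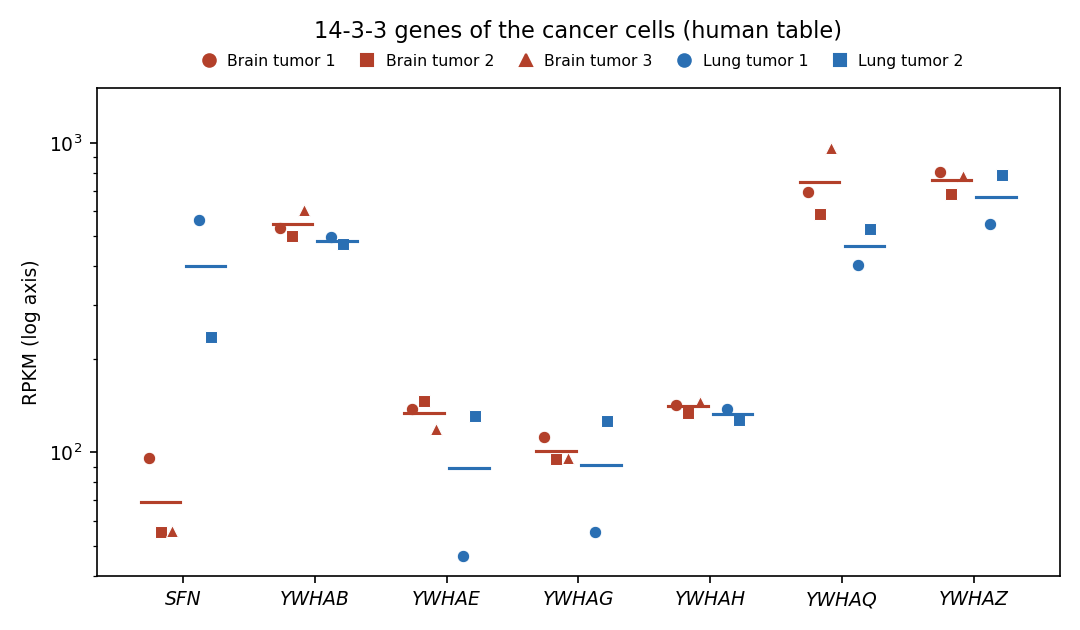
RPKM of the 7 human 14-3-3 genes on a log axis, brain tumors in red and lung tumors in blue, with 1 symbol per library and a bar at the group mean. SFN lies at 55.4 to 96.2 RPKM in the brain tumors and at 236 and 565 RPKM in the lung tumors, while YWHAH stays between 128 and 146 RPKM and YWHAE and YWHAG are lowest in lung tumor 1.

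Of the 7 human genes 3 had groups that did not overlap, where 29.7% of the 14423 tested human genes did. YWHAB and YWHAQ were the 2 higher ones in the brain tumors and SFN the 1 lower, against 17.4% and 12.3% of tested genes, and since this contrast chose the members nothing is read from these counts. At a limma adjusted p under 0.05, 1 human gene of all those tested was called (0.00693%, higher in the brain tumors), and 1517 had an unadjusted p under 0.05. The median log2 fold change was 0.23 over the 6 YWHA genes and 0.09 over all tested human genes. SFN differed from the YWHA median by -2.67 on the log2 scale, by -1.89 without lung tumor 1 and by -3.72 without lung tumor 2. With the libraries rescaled by median ratios SFN had -2.58 and the YWHA genes -0.06 to 0.63, with YWHAH the negative one.

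The order of levels within the cancer cells also differed at SFN. In the brain tumors the means ran from YWHAZ at 756 RPKM over YWHAQ at 749, YWHAB at 546, YWHAH at 141, YWHAE at 134.5 and YWHAG at 101 to SFN at 69.1. YWHAZ and YWHAQ overlapped between libraries, as did YWHAQ and YWHAB, YWHAH and YWHAE, and YWHAG and SFN, whereas YWHAB and YWHAH, and YWHAE and YWHAG, were apart. Within each brain tumor SFN had the lowest RPKM of the 7. This order rests on lengths that the deposited values imply, from 728 bases for YWHAQ and 751 for YWHAE to 1350 for SFN and 3850 for YWHAG. In recovered reads, not per length, SFN made up 5.05% of the family and YWHAE 4.02% in brain tumor 1, and SFN was lowest in brain tumors 2 and 3. By RPKM, SFN was the highest in lung tumor 1 and had rank 4 in lung tumor 2. By reads it was also the highest in lung tumor 1, with 31.3% of the family. In lung tumor 2 it had 12.3% of the reads, below YWHAZ, YWHAG, YWHAB and YWHAQ. As a share of the summed RPKM of the family, SFN made up 3.82%, 2.51% and 2.01% in the brain tumors, against 25.1% and 9.82% in the lung tumors. The share of YWHAQ was 27.6%, 26.6% and 34.8% of the sum in the brain tumors, against 17.9% and 21.9% in the lung tumors. The sum over the family differed little, with a mean of 2497 ± 284 RPKM over the 3 brain tumors and 2328 ± 109 RPKM over the 2 lung tumors (± SD), and with overlap between the libraries of the groups.

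**Figure D2:**
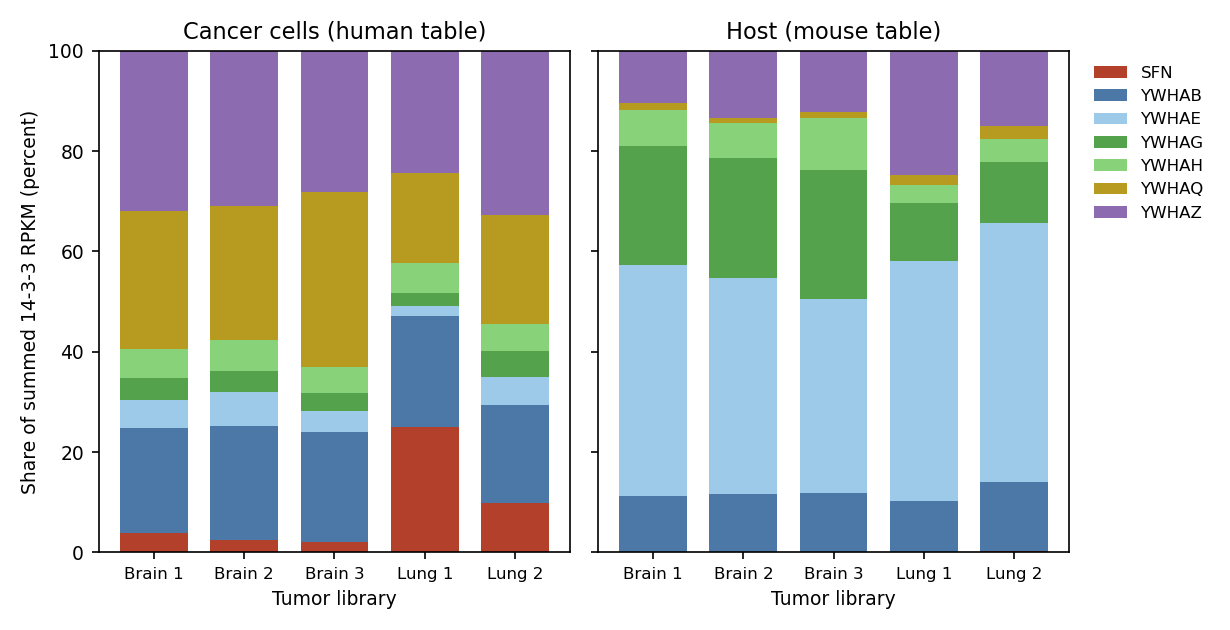
Share of each 14-3-3 gene in the summed RPKM of the family, in percent, for each library, with the human table on the left and the mouse table on the right (mouse genes under the symbols of their human counterparts). SFN takes 2.01% to 3.82% of the human sum in the brain tumors, against 25.1% and 9.82% in the lung tumors, and it is too low to be seen in the mouse sum.

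The YWHA genes have processed pseudogenes, to which reads of the parent genes could be assigned. The human table lists 11 of them under YWHA names. The highest, YWHAZP2, reached 3.50 RPKM, and in any library they summed to at most 0.244% of the YWHA sum. Human and mouse 14-3-3 transcripts are also alike, and how reads that match both were assigned is not given in the sources used here. Of the reads of the 12 neuron markers, 27.1%, 14.6% and 3.29% were in the human table in brain tumors 1, 2 and 3, against 99.1% and 72.6% in lung tumors 1 and 2. For the 6 oligodendrocyte markers these shares were 10.6%, 7.96% and 1.07% in the brain tumors, against 98.0% and 69.4% in the lung tumors. For the 6 astrocyte markers they were 1.25%, 0.642% and 0.0699% in the brain tumors, against 90.1% and 17.6% in the lung tumors. In reads, the human table held 549, 450 and 73 of these markers in the brain tumors, against 546 and 245 in the lung tumors. The mouse table held 43329, 69639 and 104318, against 60 and 1145, so the shares depend on the mouse reads as well. The human table thus held reads of all 3 lists in the lung tumors too, and the part of mouse reads in the human YWHA values was not tested.

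Profiles over the 5 libraries were compared by the root mean square difference of log2(RPKM + 1) values, each centred on its gene's mean. Of 9980 human genes ranked, the nearest to SFN was UPP1, which encodes uridine phosphorylase, at a distance of 0.266, where the median gene was at 1.42. UPP1 had 64.2, 36.9 and 42.7 RPKM in the brain tumors, against 251 and 156 RPKM in the lung tumors. EEF1A2, an elongation factor gene, had 19.2, 10.5 and 9.80 RPKM in the brain tumors, against 71.3 and 56.4 RPKM in the lung tumors, at a distance of 0.308. Next came HES6, a member of the HES family of transcription regulators, the calcium-binding protein genes CIB1 and EFHD2, ROMO1, which encodes a mitochondrial membrane protein, EPS8L1, related to the EGFR substrate EPS8, and SEC61G, a subunit of the protein channel of the endoplasmic reticulum, at 0.342 to 0.419. All 8 were highest in lung tumor 1, as SFN was, and lung tumor 1 also had the lowest level of YWHAE, YWHAG, YWHAQ and YWHAZ. The YWHA genes ranked 3858 (YWHAH) to 8546 (YWHAE).

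**Figure D3:**
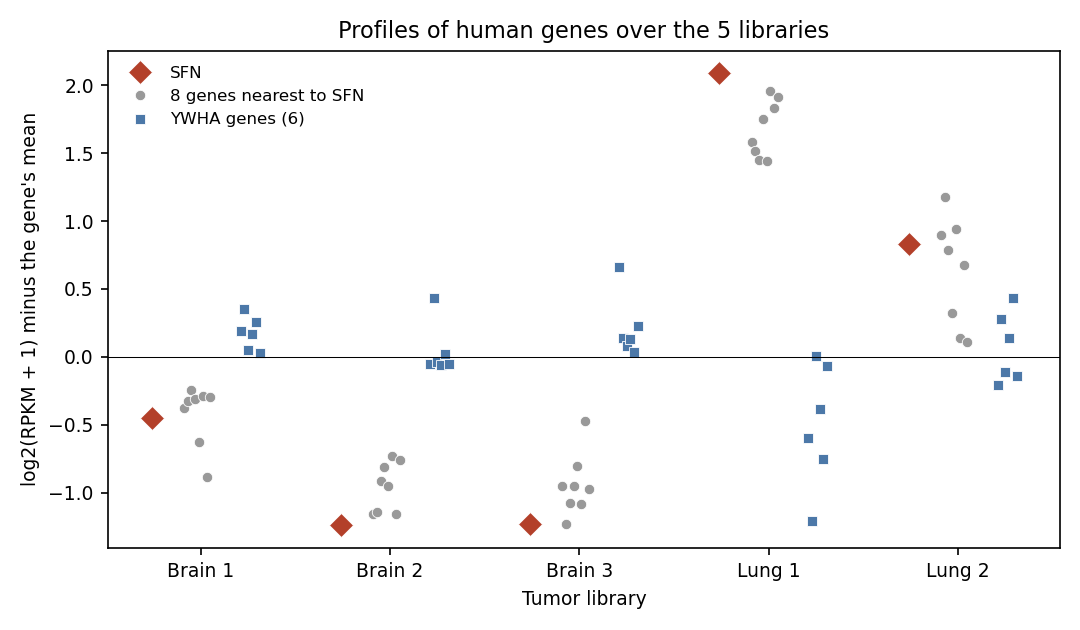
Log2(RPKM + 1) minus the gene's own mean in each of the 5 libraries, for SFN (diamonds), the 8 human genes nearest to it (circles) and the 6 YWHA genes (squares). SFN and its nearest genes lie below their means in the brain tumors and above them in the lung tumors, most in lung tumor 1, where 4 YWHA genes are at their lowest.

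Of the tested genes beside SFN on chromosome 1, most had a negative log2 fold change. Because SFN was chosen for its difference, nothing is read from the smaller size of theirs. Within 100 kb on either side, a window chosen after the values of SFN were seen, 6 neighbours were tested, and their log2 fold changes ran from -0.91 to 1.22, with 4 negative and 2 positive. Without overlap 3 were lower and 1 higher in the brain tumors, where 12.3% and 17.4% of tested genes were. NUDC, which encodes a nuclear migration protein, had 144, 103 and 102 RPKM in the brain tumors, against 305 and 154 RPKM in the lung tumors. GPN2, a GTPase gene next to SFN, had 58.4, 59.5 and 57.9 RPKM in the brain tumors, against 67.0 and 70.2 RPKM in the lung tumors. On the other side the nearest tested gene, the palmitoyltransferase gene ZDHHC18, had 34.1, 35.6 and 41.9 RPKM in the brain tumors, against 44.5 and 69.7 RPKM in the lung tumors. Farther off, ARID1A, which encodes a subunit of a chromatin remodelling complex, was the one with higher values in every brain tumor, at 60.9, 74.5 and 95.6 RPKM, against 19.0 and 53.5 RPKM in the lung tumors.

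Because SFN is a gene of stratified epithelium, other genes of that tissue were listed, and most of those tested had lower values in the brain tumors. Of 34 genes 19 passed the filter on low values, 15 had a negative log2 fold change, and the median was -0.93, beside 0.09 over all tested human genes. None of the 19 passed the limma test (7 had an unadjusted p under 0.05, all of them lower). In every brain tumor 7 were below both lung tumors and 0 above, where 12.3% of tested genes were below and 17.4% above. Among these 7, and among the 15, was S100A14, which passed the filter only through the lung tumors, where it was higher. It had 0.667, 0.292 and 0 RPKM in the brain tumors, against 1.72 and 2.50 RPKM in the lung tumors. SERPINB5, also among the 7, had 1.28, 0.843 and 0.738 RPKM in the brain tumors, against 5.52 and 6.25 RPKM in the lung tumors. Among the 15, TP63 and KRT17 reached 1 RPKM in a single brain tumor. SERPINB5, TP63 and KRT17 thus needed the lung tumors to pass, and for all such genes the filter favours lower values in the brain tumors. Against lung tumor 2 alone 15 were below and 0 above (30.4% and 28.7% of tested genes), whereas against lung tumor 1 alone 8 were below and 5 above (28.8% and 44.9%). LYPD3, a surface protein gene that was already known to be low in the brain tumors, had 26.3, 12.7 and 14.1 RPKM there, against 64.04 and 159.7 RPKM in the lung tumors. S100A2, a calcium-binding protein gene of basal cells, had 8.87, 3.89 and 3.83 RPKM in the brain tumors, against 21.7 and 24.95 RPKM in the lung tumors. KRT15, a basal keratin gene, had 2.54, 1.11 and 1.25 RPKM in the brain tumors, against 2.34 and 29.3 RPKM in the lung tumors, so that lung tumor 2 alone stood out. LYPD3, S100A2 and KRT15, unlike SFN, were higher in lung tumor 2 than in lung tumor 1. Among the 7, LAMB3 and PKP3 were higher in lung tumor 1, as SFN was, and the others were higher in lung tumor 2. LAMB3 had 79.8 and 63.6 RPKM in lung tumors 1 and 2, and PKP3 225 and 163 RPKM. The median of the list was -1.02 without lung tumor 1 and -0.38 without lung tumor 2.

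Of the 9 reported regulators of SFN tested, 8 had a positive log2 fold change and 1, TP63, a negative one. In the brain tumors 2 were higher without overlap and 0 lower, where 17.4% and 12.3% of tested genes were. These were DNMT3B, a DNA methyltransferase gene, and RFWD2, a ubiquitin ligase gene, both named after their values were seen. DNMT3B had 2.66, 3.31 and 1.83 RPKM in the brain tumors, against 0.867 and 1.64 RPKM in the lung tumors. It thus needed the brain tumors, where it was higher, to pass the filter of 1 RPKM in 2 libraries. RFWD2 had 17.7, 18.5 and 22.4 RPKM in the brain tumors, against 15.9 and 12.3 RPKM in the lung tumors. TP63, a transcription factor gene that drives stratified epithelium, had 1.92, 0.435 and 0.457 RPKM in the brain tumors, against 1.37 and 9.08 RPKM in the lung tumors. It needed the lung tumors, where its mean was higher, to pass that filter, which favours a negative value. DNMT1, the maintenance DNA methyltransferase, had 306, 309 and 270 RPKM in the brain tumors, against 102 and 375 RPKM in the lung tumors, and its log2 fold change of 0.58 was -0.35 without lung tumor 1. TP63 and DNMT1 overlapped between the groups, and 0 of the 9 passed by limma (0 at an unadjusted p under 0.05). The median log2 fold change of the list was 0.46, or -0.04 without lung tumor 1 and 0.93 without lung tumor 2.

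Partners that 14-3-3 proteins bind were listed in 3 groups. Of 14 cell cycle and survival partners 0 passed by limma (0 at an unadjusted p under 0.05), 4 were higher and 1 lower without overlap, where 17.4% and 12.3% of tested genes were, and the median log2 fold change was 0.54. Without lung tumor 1 it was 0.18, with 6 higher and 4 lower, and without lung tumor 2 it was 0.74, with 11 higher and 1 lower. With 1 lung tumor left, 28.7% and 30.4% of all tested genes were higher and lower without overlap in the first case, and 44.9% and 28.8% in the other. BAD, a cell death gene whose protein 14-3-3 holds in the cytoplasm, was the lower one, at 96.7 ± 4.72 RPKM in the brain tumors (SD, n = 3), against 327 and 117 RPKM in lung tumors 1 and 2. Its log2 fold change of -1.01 was -0.27 without lung tumor 1. The forkhead factor genes FOXO1 and FOXO4 were among the higher ones, FOXO1 with 6.70, 7.06 and 14.3 RPKM in the brain tumors, against 3.24 and 4.49 RPKM in the lung tumors. FOXO4 had 4.38, 4.39 and 6.37 RPKM in the brain tumors, against 1.49 and 4.15 RPKM in the lung tumors.

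Of 24 growth signalling and transcription partners 0 passed by limma (4 at an unadjusted p under 0.05, all higher), 10 were higher and 2 lower without overlap, where 17.4% and 12.3% of tested genes were, and the median log2 fold change was 0.48. It was 0.22 without lung tumor 1 and 0.80 without lung tumor 2. BRAF, a kinase gene of the MAPK pathway, had 13.7, 14.4 and 27.1 RPKM in the brain tumors, against 4.23 and 10.3 RPKM in the lung tumors. GAB2, an adaptor gene of receptor signalling, had 161, 166 and 443 RPKM in the brain tumors, against 75.9 and 127 RPKM in the lung tumors. CRTC3, a coactivator gene of CREB, had 136, 131 and 292 RPKM in the brain tumors, against 59.9 and 108 RPKM in the lung tumors. All 3 were highest in brain tumor 3 and lowest in lung tumor 1.

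Of 16 cytoskeleton and polarity partners 0 passed by limma (0 at an unadjusted p under 0.05), 0 were apart between the groups, where 29.7% of tested genes were, and the median log2 fold change was 0.13, or -0.01 with median-ratio scaling. Without lung tumor 1 the median was -0.18, with 0 higher and 5 lower without overlap, where 28.7% and 30.4% of tested genes were. Without lung tumor 2 it was 0.62, with 8 higher and 2 lower, where 44.9% and 28.8% of tested genes were. The kinesin gene KIF1B, the desmosome gene PKP2 and the cofilin phosphatase gene SSH1 had the largest log2 fold changes, 1.11, 0.80 and 0.67, and all 3 were lowest in lung tumor 1. Without it KIF1B had 0.27, PKP2 0.088 and SSH1 -0.35.

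**Figure D4:**
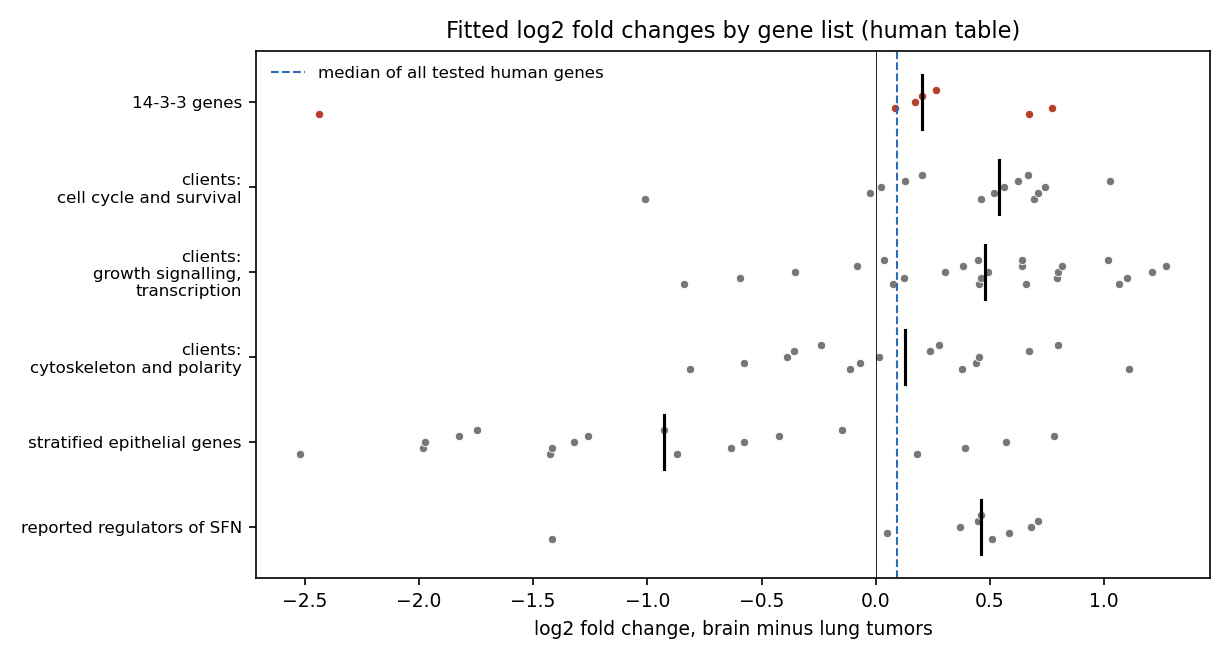
Fitted log2 fold change, brain minus lung tumors, of the 7 human 14-3-3 genes (red) and of the tested genes of 5 lists (grey), with a black bar at each median and a dashed line at the median of all tested human genes, 0.09. SFN at -2.43 stands far from the YWHA genes at 0.08 to 0.77, and the stratified epithelial genes, with a median of -0.93, are the one list whose median is below 0.

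In the host tissue Ywhag and Ywhah were higher in the brain tumors than in the lung tumors. The other members tested did not pass, and Sfn was not tested. Ywhag (ENSMUSG00000051391.9), the gamma isoform gene, had 559, 549.9 and 647 RPKM in the brain tumors, against 196 and 149 RPKM in the lung tumors. The groups lay far apart. The fitted log2 difference was 1.77 with an SE of 0.31 (adjusted p = 0.0127 by limma). Ywhah (ENSMUSG00000018965.11), the eta isoform gene, had 169, 159 and 263.5 RPKM in the brain tumors, against 56.9 and 56.1 RPKM in the lung tumors. The groups were again apart, by 1.75 on the log2 scale with an SE of 0.34 (adjusted p = 0.0173 by limma). In lung tumor 1 these values rested on 75 and 18 reads. Both calls were lost when any single brain tumor was left out, with adjusted p of 0.0632, 0.0785 and 0.0669 for Ywhag and 0.0635, 0.0682 and 0.0580 for Ywhah without brain tumors 1, 2 and 3, and log2 fold changes of 1.69 to 1.81 and 1.52 to 1.88.

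The remaining host genes differed less. Ywhab had 266, 268 and 302 RPKM in the brain tumors, against 170 and 169 RPKM in the lung tumors, with no overlap but an adjusted p of 0.116 by limma. Ywhae, the member of highest RPKM in the host, had 1079, 982 and 979 RPKM in the brain tumors, against 799.6 and 634 RPKM in the lung tumors (limma adjusted p = 0.314). In recovered reads, not per length, Ywhag lay above Ywhae in all 3 brain tumors, with 33.2%, 33.2% and 34.3% of the reads of the family against 29.3%, 27.2% and 23.8%, since the deposited values imply a length of 754 bases for Ywhae and 1650 bases for Ywhag. Ywhaq was low in every library, at 29.4, 25.1 and 30.7 RPKM in the brain tumors, against 33.9 and 32.8 RPKM in the lung tumors (limma adjusted p = 0.602). Ywhaz overlapped, with 246, 304 and 310 RPKM in the brain tumors, against 415 and 183 RPKM in the lung tumors (limma adjusted p = 0.944). Its lung values lay on both sides of the brain tumors, and its log2 fold change of 0.05 was -0.54 without lung tumor 2 and 0.64 without lung tumor 1. In all, 2 of the 6 host genes tested passed, both higher, where 22.4% of 15431 tested mouse genes passed, 14.3% as higher and 8.12% as lower. That balance depended on scaling, with 2204 higher and 1253 lower calls here and 2145 higher and 2086 lower calls with voom. Groups did not overlap for 5 of the 6, where this held for 56.1% of tested mouse genes. Of these 5, Ywhab, Ywhae, Ywhag and Ywhah were higher in the brain tumors and Ywhaq was lower, against 30.0% and 26.2% of tested mouse genes. The median log2 fold change of the 6 was 0.61, beside 0.08 over all tested mouse genes.

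Neuron, astrocyte and oligodendrocyte markers were higher in the same libraries as Ywhag and Ywhah. All 12 neuron, 6 astrocyte and 6 oligodendrocyte markers were higher in every brain tumor and passed the test. Of tested mouse genes 30.0% were higher without overlap and 14.3% passed as higher. Snap25 and the other neuron markers summed to at least 3205 RPKM in each brain tumor, against at most 100.2 in a lung tumor. The astrocyte markers summed to 13010 to 14700 RPKM in the brain tumors, against 210.5 and 134.0 in lung tumors 1 and 2. For the oligodendrocyte markers the sums were 2593 to 5367 RPKM, against 62.05 and 59.33. The part of these cells in the difference of Ywhag and Ywhah was not tested.

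**Figure D5:**
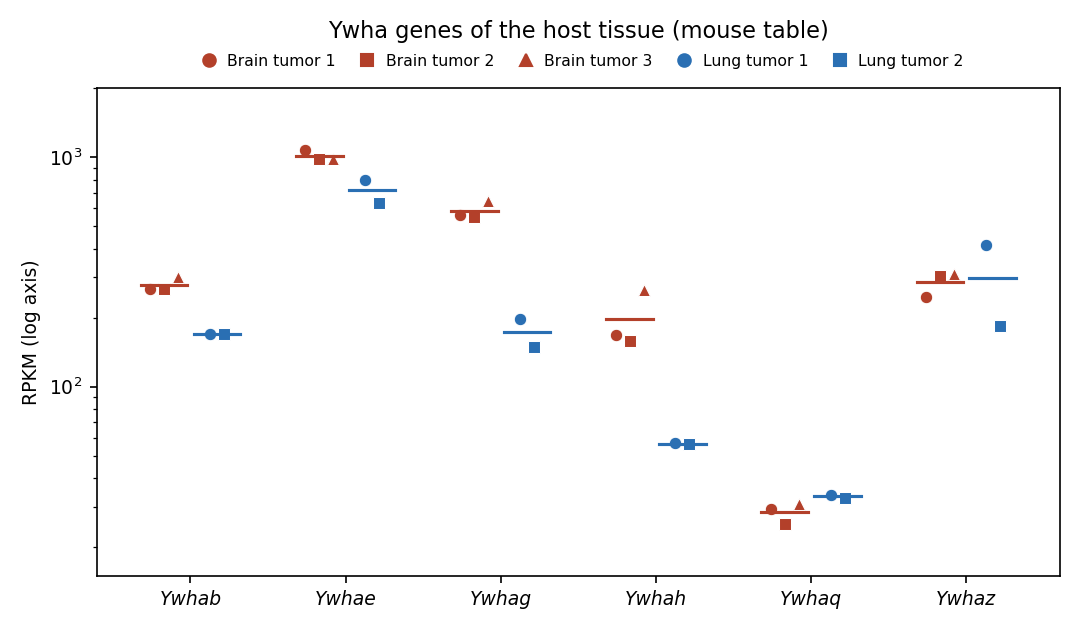
RPKM of the 6 mouse Ywha genes on a log axis, brain tumors in red and lung tumors in blue, with 1 symbol per library and a bar at the group mean. Ywhag and Ywhah lie at 159 to 647 RPKM in the brain tumors and at 56.1 to 196 RPKM in the lung tumors, and Ywhaz overlaps.

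The host gene Sfn was close to absent. It had 0, 0.123 and 0.281 RPKM in the brain tumors, against 0 and 2.29 RPKM in the lung tumors, from 0, 1 and 4 reads against 0 and 20 reads. It did not pass the filter of 1 RPKM in 2 libraries and was not tested. The 0 in lung tumor 1 allows up to 7.84 RPKM (3 reads) because that library is shallow for mouse, and the 0 in brain tumor 1 allows up to 0.670 RPKM, both for counting error only. Mouse genes of stratified epithelium were low too, with 11 of 13 listed in the table, 0 tested and sums of 1.009 to 2.01 RPKM in the brain tumors, against 8.97 and 12.3 RPKM in the lung tumors. Reads of this gene were therefore nearly all in the human table in every library. The mouse table held 0, 0.208% and 2.13% of them in the brain tumors, against 0 and 1.64% in the lung tumors.

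Among the YWHA genes the balance between the 2 tables differed widely. Human YWHAQ stood at 23.7, 23.3 and 31.4 times the RPKM of mouse Ywhaq in the brain tumors, against 11.9 and 16.1 times in the lung tumors. Mouse Ywhae stood at 7.81, 6.70 and 8.22 times the RPKM of human YWHAE in the brain tumors, against 17.3 and 4.83 times in the lung tumors. YWHAH was higher in the mouse table in all 3 brain tumors and higher in the human table in both lung tumors. Each table has its own gene models and its own read total, with implied lengths of 728 bases for YWHAQ and 1780 for Ywhaq, so these ratios compare levels relative to each species' RNA, and the part of read assignment in them was not tested.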

How the data were processed

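RNA of 3 brain and 2 lung tumors was sequenced, and the authors deposited RPKM per gene in 1 human and 1 mouse table. The submitters' processing notes name the builds GRCh38 (hg38) for human and GRCm38 (mm10) for mouse. Aligner, counting, gene lengths, strand and species assignment: not given in the sources used here. Columns were joined to samples by library number, and 0 were left unmapped. Whole reads were recovered from ratios of RPKM within a gene (all 21131 human and 20633 mouse genes above 0 in at least 2 libraries came out whole within 1e-06 reads), up to a common divisor, so totals are lower bounds.

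Genes that reached 1 RPKM in 2 or more libraries were fitted as log2(RPKM + 1), brain minus lung, with limma 3.58.1 in R 4.3.3 (eBayes with trend, Benjamini-Hochberg adjustment within a species, threshold 0.05). Fold changes are on that scale, which understates those of low genes. The fit was also run on simulated counts with the same spread setting for all genes and libraries. That cannot show how it does with the spread of these libraries. Figures used matplotlib 3.10.9. Members, lists and settings were chosen with earlier results of these data known. Named were all members, the 8 genes nearest to SFN with a mean RPKM of at least 5, and, with none called, the 3 members of each list with the largest absolute log2 fold change and a mean of at least 5 RPKM in the higher group. A listed gene and the list that depends on it are not reported here. Neighbours of SFN and marker genes were also named, and those not under this rule were chosen after their values were seen. Alternatives were pseudocounts of 0.1 and 0.5, other filters and scalings, no trend, voom, the replicate number as a block, leaving out each library and, added after seeing the data, a gene-length correction. Locations were matched by symbol to RefSeq, for 7 of 7 human members.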

Additional observations from a re-analysis of the deposited data

How the results depend on the processing

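SFN kept a negative log2 fold change under all 15 alternatives, from -3.06 to -1.81. YWHAQ kept a positive one, from 0.47 to 0.86. The difference between SFN and the YWHA median ran from -3.72 to -1.89 with single libraries left out. The SFN share of the family was 2.26% to 3.17% in the brain and 9.82% to 25.1% in the lung tumors with single libraries left out, and in recovered reads, not per length, it was 3.73% in the brain tumors. YWHAB had 0.026 and YWHAH -0.0601 with median-ratio scaling, and YWHAG -0.145 with gene-length correction. Leaving out single libraries gave 0.0294 to 1.52 for YWHAE, -0.33 to 0.86 for YWHAG and -0.0585 to 0.46 for YWHAZ. The human table called 1 gene, 0 with voom, 114 with the replicate block and 0 to 2183 with single libraries left out, most without lung tumor 2, where 1 lung tumor is left and its spread is taken to equal that of the brain tumors. The mouse table called 3457 genes, 2295 with no filter, 1484 with the replicate block and 1245 to 8084 with single libraries left out. With that block Ywhag had 1.69 (limma adjusted p = 0.126), Ywhah 1.52 (0.121) and Ywhaz -0.0114 (0.993). The labels pair no libraries, the 2 shared numbers correlated in their deviations at -0.082 and 0.059 over human and 0.035 and 0.05 over mouse genes, and brain tumor 3 adds nothing to the blocked difference. Leaving out single libraries gave 1.57 to 1.97 for Ywhag, 1.52 to 1.88 for Ywhah, -0.54 to 0.64 for Ywhaz and 0.65 to 0.74 for Ywhab (0.70, limma adjusted p = 0.0400, without lung tumor 2). Without lung tumor 1 the limma adjusted p was 0.00201 for Ywhag and 0.0126 for Ywhah, and in these fits too the spread comes from the brain tumors alone. The median over all tested mouse genes, 0.08, moved to 0.22 after median-ratio scaling, to -0.11 after quantile normalization and to -0.15 in voom, and Ywhag and Ywhah passed under all 3. The cause of these shifts was not tested. Depth limits the host most in lung tumor 1, where 1 read of Sfn is worth 2.61 RPKM.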
